A study of Danio rerio with 6 samples.

Results

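The Tfap2 genes encode the AP-2 family of transcription factors. The family was taken by gene name, with earlier results of these data known. It comprises the 5 rows *tfap2a*, *tfap2b*, *tfap2c*, *tfap2d* and *tfap2e* of a table of 47445 rows of raw read counts. None of the 5 has a second row with the suffix -2, which many other names in the table have. After a filter on low counts 4 of the 5 were tested among 15607 genes, and *tfap2d* was not.

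AP-2 proteins bind DNA as dimers through a shared carboxy-terminal domain, so family members made in the same cell can act in place of each other. In vertebrate embryos they act in the non-neural ectoderm, at the border of the neural plate, in the neural crest and its pigment and pharyngeal arch derivatives, in the epidermis and in some neurons. In zebrafish, *tfap2a* and *tfap2c* act redundantly in the induction of the neural crest, and *tfap2a* and *tfap2e* act redundantly in melanophores, the black pigment cells.

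Embryos of the zebrafish (*Danio rerio*) were sampled 1 day after fertilisation, 3 with the genotype label wild type (controls) and 3 with the label *rapgef1b* knockdown. *rapgef1b* encodes an exchange factor for Rap GTPases, and the study's title names neural crest specification as one of its subjects. The labels give neither the knockdown reagent, the strain, the number of embryos per sample nor any control treatment of the wild-type embryos, and nothing says that the samples came from separate clutches, so p-values measure only the spread between these samples. Total RNA was depleted of ribosomal RNA before sequencing.

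Library totals ran from 2042600 to 3809123 counts. *rapgef1b* itself, the targeted gene, was not reduced under the knockdown label. It had 111 ± 1.49 CPM (counts-per-million values, scaled to library size with TMM factors) in controls and 131 ± 20.8 CPM under the knockdown label (mean ± SD, n = 3 per group). The groups overlapped, and the log2 fold change was 0.24 (adjusted p-value 0.386, quasi-likelihood test of edgeR). The reagent is not given, so this level does not show whether the knockdown worked. The groups are therefore called by their labels throughout. On the first principal component (41.8% of the variance), controls lay between -25.2 and -22.7 and knockdown replicates 1, 2 and 3 lay at 19.3, 5.48 and 46.0. Of 16 markers of embryonic tissues, 12 passed the count filter. Among the others, *gata1a* and *lyz*, markers of red and white blood cells, were listed at 0 in every library. Both have a copy row that was also at 0, so 0 in a row with a copy does not show that a gene was silent.

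Within the family, *tfap2e* fell in the libraries labelled knockdown, and the other members did not pass the test. The estimate for *tfap2b* was lower, that for *tfap2c* was slightly higher, and that for *tfap2a* was close to 0. Of the 4 tested members, 1 was called at an adjusted p-value under 0.05. Over all tested genes 4.29% were called, 2.27% lower (355 genes) and 2.01% higher (314 genes), a split that was 284 lower and 413 higher with library size alone. In bulk RNA from embryos, fewer cells of a type and less RNA per cell cannot be told apart.

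*tfap2e* is the member that acts with *tfap2a* in melanophore development. Control replicates 1, 2 and 3 had 13.7, 16.0 and 14.8 CPM of *tfap2e*, and knockdown replicates 1, 2 and 3 had 6.2, 10.1 and 5.6 CPM. The highest library labelled knockdown lay below the lowest control, and replicate 2 lay nearest to the controls. Controls averaged 14.9 ± 1.12 CPM and the libraries labelled knockdown 7.31 ± 2.46 CPM (SD, n = 3 per group), and the fitted level was 2.02-fold lower. On the log2 scale the difference was -1.02 (SE 0.28, 95% interval -1.60 to -0.43). The quasi-likelihood test of edgeR gave an adjusted p-value of 0.0429 after Benjamini-Hochberg correction over all tested genes. These values rest on 29 to 51 counts in the control libraries and 12 to 22 counts in the libraries labelled knockdown. In controls the coefficient of variation was 7.55%, under the 15.8% that counting alone gives. In the libraries labelled knockdown the coefficient of variation was 33.7%, where counting alone gives 25.8%.

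The call for *tfap2e* was close to the threshold and held in 8 of 17 alternative settings. It was lost without any 1 of the 3 control replicates and without knockdown replicate 1 or 3, with the highest adjusted p-value, 0.184, without control replicate 2 (range over its alternatives from 0.0168 to 0.184). It was also lost with library size alone, with DESeq2 or limma-voom in place of edgeR, and with every library thinned to the smallest total. The estimate was negative in all 17 settings, from -1.33 without knockdown replicate 2 to -0.87 without knockdown replicate 3.

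*tfap2b* has roles in the facial ectoderm, in neurons and in the kidney. The 3 control replicates had 26.4, 21.2 and 19.9 CPM of *tfap2b*, and the 3 libraries labelled knockdown had 13.3, 13.8 and 16.8 CPM. All 3 libraries labelled knockdown lay below all controls, with control replicate 1 well above the other controls. Control libraries averaged 22.5 ± 3.42 CPM, and those labelled knockdown 14.6 ± 1.89 CPM (SD, n = 3 per group). The estimate on the log2 scale, -0.64 (SE 0.22, 95% interval -1.1 to -0.18), missed the threshold at an adjusted edgeR p-value of 0.106. None of the 17 alternatives brought it under 0.05 (adjusted p from 0.0873 to 0.421), and the estimate stayed between -0.76 and -0.50. The spread within groups was close to that of counting, with coefficients of variation of 15.2% and 12.9% against 13.1% and 17.7% from counting alone.

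*tfap2c*, which acts with *tfap2a* at the neural plate border, was the tested member whose estimate was above 0. Control replicates 1, 2 and 3 had 159, 172 and 174 CPM of *tfap2c* and knockdown replicates 1, 2 and 3 had 219, 214 and 193 CPM. All 3 libraries labelled knockdown lay above all controls, with group means of 209 ± 13.9 CPM and 169 ± 7.89 CPM (SD, n = 3 per group). The estimate was 0.31 on the log2 scale (SE 0.13, 95% interval 0.04 to 0.57), and its adjusted edgeR p-value was 0.190. It was not called under any of the 17 alternatives, over which it ran from 0.24 to 0.37.

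*tfap2a* is the member whose loss alone disturbs neural crest, pharyngeal arches and melanophores in zebrafish. The 3 control libraries had 157, 163 and 162 CPM of *tfap2a*, and the 3 libraries labelled knockdown had 147, 156 and 153 CPM. The groups lay close together without overlapping. Group means were 161 ± 2.97 CPM for controls and 152 ± 4.65 CPM for the knockdown label (SD, n = 3 per group). The log2 fold change of -0.08 (SE 0.12) had an adjusted edgeR p-value of 0.794. Its 95% interval, from -0.34 to 0.18, spans levels in the libraries labelled knockdown of 0.79 to 1.13 times those of controls. With 317 to 584 counts per library, the replicates of *tfap2a* varied by 1.85% in controls and 3.06% in the libraries labelled knockdown, under the 4.79% and 5.48% that counting alone gives.

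*tfap2d*, known from the midbrain, hindbrain and retina, was near the limit of detection. Control replicates 1, 2 and 3 had 7, 11 and 1 counts and knockdown replicates 1, 2 and 3 had 5, 1 and 1 counts. The groups overlapped, and both held a library with a single count. Summed over libraries, 19 counts in controls make 2.10 CPM, on the unscaled library totals, with an exact 95% Poisson interval from 1.27 to 3.28, and 7 counts in the libraries labelled knockdown make 1.07 CPM with an interval from 0.43 to 2.20. These intervals cover counting error only. They overlap, which does not decide whether the groups differ, and the summed counts were not tested against each other. Without the filter the log2 fold change was -0.99 with an adjusted p-value of 0.665.

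**Figure D1:**
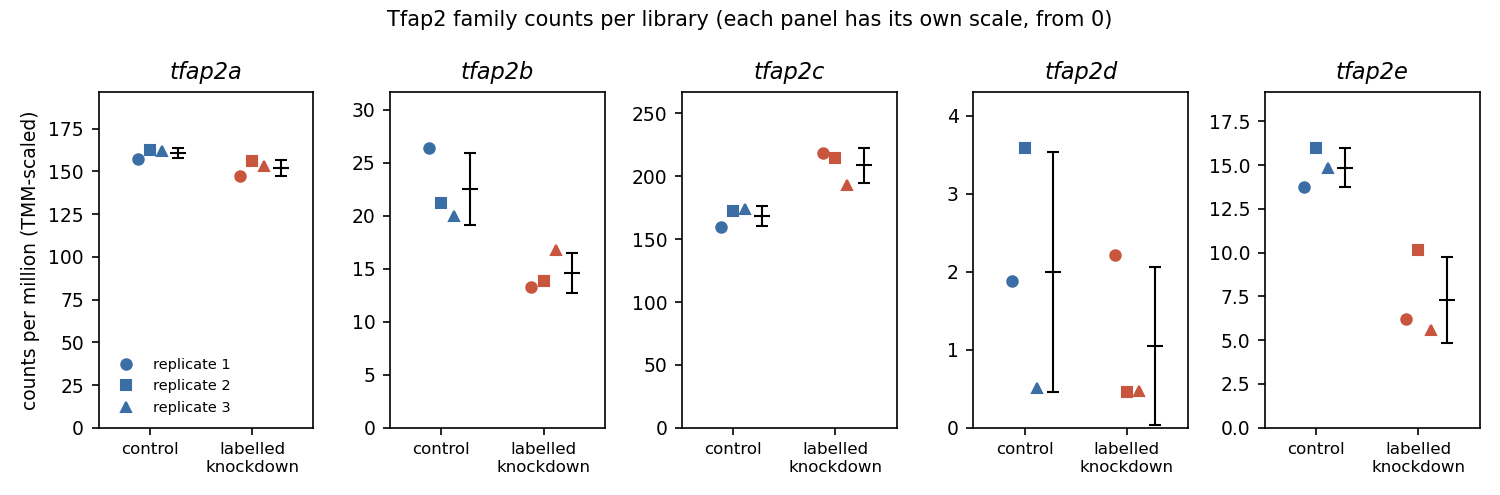
CPM in each library for the 5 Tfap2 genes, with TMM-scaled library sizes, controls in blue and libraries labelled knockdown in red. Marker shapes give the replicate number and the black bars the mean ± SD of 3 libraries. The 3 libraries labelled knockdown lie at 5.6 to 10.1 for *tfap2e*, below the controls at 13.7 to 16.0, while the values of *tfap2d* overlap.

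Each of the 4 tested members had groups that did not overlap, 3 of them lower and *tfap2c* higher. Such separation was seen in 23.2% of all tested genes, and in 11.9% with the libraries labelled knockdown lower. It also occurred for *tfap2a*, whose fitted fold was 0.946, so it does not by itself mark a large change. Members that pass a filter on counts are not the whole family, and these counts are given as a description.

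**Figure D2:**
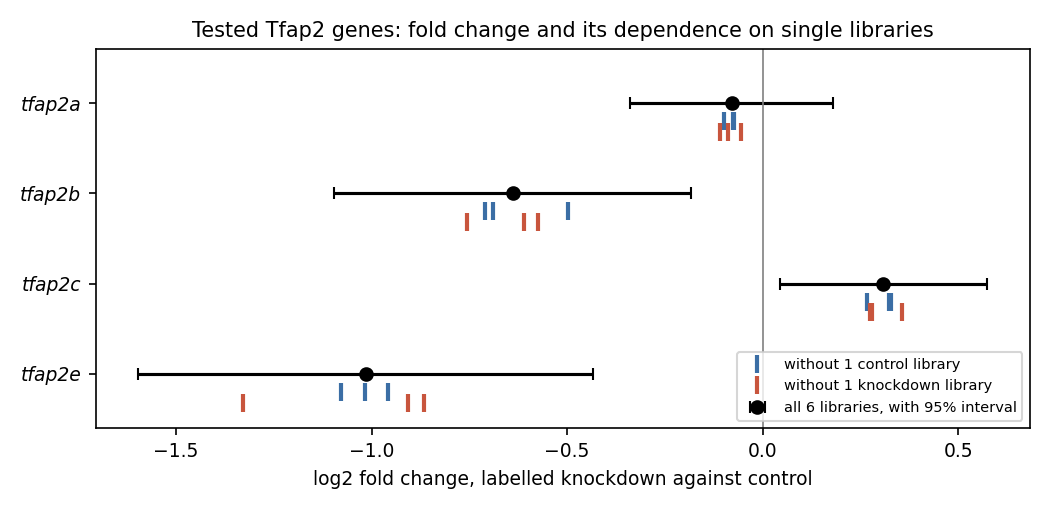
Log2 fold change of the 4 tested Tfap2 genes in the libraries labelled knockdown against controls. Black points and bars show the estimate and 95% interval from all 6 libraries, and coloured ticks the estimate with 1 control (blue) or 1 knockdown-labelled (red) library left out. The ticks of *tfap2e* reach from -1.33 to -0.87 and those of *tfap2a* from -0.11 to -0.06, and no tick crosses 0.

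Whether members changed by different amounts was examined from the log2 ratio of their CPM within each library, over the 6 pairs of tested members. The *tfap2c* to *tfap2e* ratio was 3.46, 3.37 and 3.48 on the log2 scale in control replicates 1, 2 and 3 and 4.97, 4.30 and 4.92 in knockdown replicates 1, 2 and 3. It was thus higher in 3 of 3 libraries labelled knockdown, by 1.29 on average (3.44 ± 0.06 against 4.73 ± 0.38, SD, n = 3 each), the widest difference of the 6 pairs. The *tfap2a* to *tfap2e* ratio was 3.37 ± 0.08 in controls and 4.28 ± 0.39 under the knockdown label (SD, n = 3 each), a difference of 0.91. Beside these, the *tfap2a* to *tfap2c* ratio was -0.07 ± 0.04 in controls and -0.45 ± 0.12 under the knockdown label (SD, n = 3 each), a difference of -0.38.

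The *tfap2a* to *tfap2b* ratio differed by 0.51 and the *tfap2b* to *tfap2c* ratio by -0.90, again with no overlap between groups. For *tfap2b* against *tfap2e* the difference was 0.40 with overlapping groups, from 0.57 ± 0.29 to 0.96 ± 0.52 (SD, n = 3 each). An exact two-sided permutation test over the 6 libraries gave p = 0.1 for 5 of the 6 pairs, the smallest value that 3 against 3 allows, and 0.12 after adjustment over the 6 pairs. For *tfap2b* against *tfap2e* the exact permutation p was 0.2. This test could therefore not have called any pair, whatever the ratios, and no other test of the ratios was run. A ratio within a library does not depend on the scaling of that library, apart from the small prior count added to each value.

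The family was then set beside genes of processes in which it acts, p53 pathway genes and tissue markers. These 12 lists were chosen with earlier results of these data known, so their called shares are a description. The co-activators and inhibitors of AP-2 proteins come first. CITED proteins are co-activators of AP-2, and KCTD1 and KCTD15 inhibit AP-2 activity. All 8 genes of this group with a row were tested and none was called by edgeR or DESeq2. Over all 15607 tested genes, 2826 had an unadjusted edgeR p-value under 0.05, and 2 of the 8 did. Those 2 were *cited1* and *cited2*, which averaged 7.63 ± 0.85 and 30.4 ± 4.29 CPM over the controls against 11.9 ± 1.1 and 41.3 ± 1.31 CPM under the knockdown label (SD, n = 3 per group). On the log2 scale *cited1* was at 0.61 and *cited2* at 0.44, and edgeR's adjusted p-values were 0.224 and 0.168. Of the 8 genes only these had groups that did not overlap, the libraries labelled knockdown being higher. Such separation was seen in 23.2% of all tested genes.

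Among the inhibitors, *kctd1* had a log2 fold change of 0.76 on 8 to 26 counts per library, with an adjusted edgeR p-value of 0.285. *kctd15a* varied within the group labelled knockdown, at 32.8, 50.2 and 79.8 CPM in replicates 1, 2 and 3, and its log2 fold change of 0.24 was -0.15 without knockdown replicate 3. *kctd15b*, *cited4a* and *cited4b* had log2 fold changes of 0.08, -0.04 and 0.15. *cited4b* has a copy row, which leaves its level uncertain. *wwox*, whose protein binds AP-2 factors in human cells, had a log2 fold change of -0.20. These last 4 estimates each crossed 0 in at least 1 of the alternatives. The median of the 8 was 0.19, against 0.01 over all tested genes. In fits without 1 library it ran from 0.15 without knockdown replicate 2 to 0.35 without knockdown replicate 1.

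Regulators of the neural plate border and neural crest went both ways. Of 23 genes, all tested, 1 was called higher and 2 lower, 13.0% against 4.29% over all genes, and their median log2 fold change was -0.11. The higher gene was *foxd3*, an early crest transcription factor, with a log2 fold change of 0.69. The lower genes were *pax7b*, a border and pigment lineage factor, and *crestin*, a marker of migrating crest in zebrafish, at -1.18 and -0.55. The balance of calls was not stable: 3 were called higher and 1 lower with library size alone, and 3 each way with copy rows summed. The number called was 1 without control replicate 1 or 3 and 5 without knockdown replicate 2. Over all genes those fits called 247, 366 and 914, against 669 with all libraries. The median of the 23 was -0.06 without control replicate 1, -0.07 without knockdown replicate 1 and -0.18 without knockdown replicate 3. *foxd3*, *pax7b* and *crestin* were called in 15, 17 and 10 of the 17 alternatives. *fam212aa*, the table's name for *inka1a*, a gene induced by Tfap2a in frog and fish crest, was named for that role and had a log2 fold change of -0.41 with an adjusted edgeR p-value of 0.253.

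Melanophore genes were called in 1 direction only. Of the 16 with a row, 13 were tested, 5 were called lower and none higher, and the median was -0.93. Estimates were below 0 for 11 of the 13 and above 0 for 2. The called share was 38.5%, against 4.29% over all tested genes. The 5 were the melanin synthesis genes *tyrp1b*, *tyrp1a*, *dct* and *tyr* and the melanosome gene *pmelb*, with log2 fold changes of -2.08, -1.52, -1.17, -1.06 and -1.33. The first 4 were called in all 17 alternatives, and *pmelb* in 13. *tyrp1a* had 39.6, 35.9 and 32.7 CPM in control replicates 1, 2 and 3 and 10.6, 17.97 and 9.33 CPM in knockdown replicates 1, 2 and 3. *mitfa*, the master regulator of melanophores, and *kita*, a receptor of that lineage that depends on Tfap2a in zebrafish, were named for these roles after their values were seen. *mitfa* averaged 16.8 ± 1.24 CPM over controls against 9.90 ± 1.80 CPM under the knockdown label (SD, n = 3 per group) and was not called, at an adjusted edgeR p-value of 0.0890, and *kita* had a log2 fold change of -0.18.

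**Figure D3:**
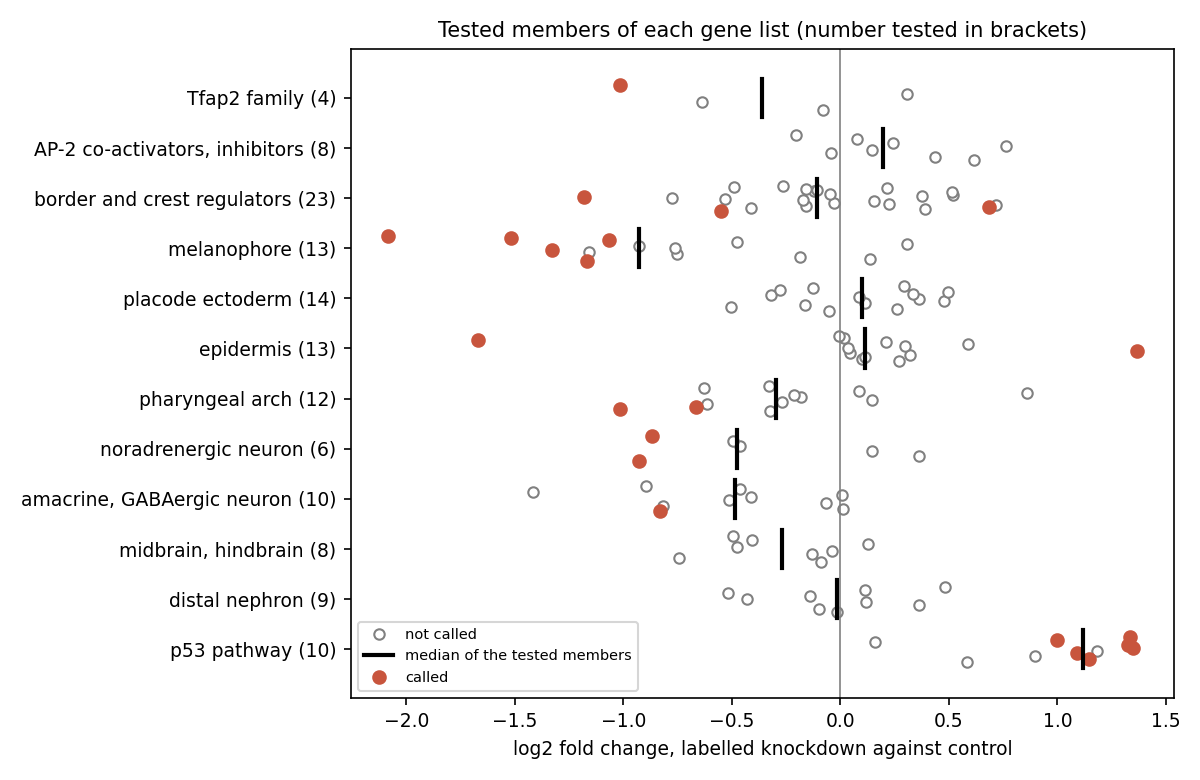
Log2 fold change, labelled knockdown against control, of every tested gene in the Tfap2 family and in 11 gene lists. Filled red points are genes with an adjusted edgeR p-value under 0.05, open grey points are genes that were not called, and black bars are medians of the tested members. The melanophore list has its median at -0.93 with 5 genes called lower, and the p53 list lies to the right with its median at 1.12.

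*tfap2e* and the melanophore list had the same order over the 3 libraries labelled knockdown. Relative to the control mean, *tfap2e* deviated by -1.16, -0.52 and -1.29 on the log2 scale in knockdown replicates 1, 2 and 3. The median of the 13 tested melanophore genes deviated by -0.95, -0.63 and -1.25 in the same libraries, and their summed level was 251, 275 and 183 CPM against 426 to 462 CPM in controls. Both were lowest in replicate 3 and nearest to the controls in replicate 2, which is also the order of these libraries on the first principal component. This order was not particular to them. The medians of the amacrine and GABAergic neuron list deviated by -0.41, -0.31 and -0.69 in knockdown replicates 1, 2 and 3. Those of the tissue markers, which include *tyrp1b*, deviated by -0.34, -0.30 and -0.63. The epidermis list (0.12, 0.02 and 0.19) and the placode list (0.07, 0.05 and 0.11) had medians above the control mean. Their medians too were nearest to the controls in replicate 2 and farthest in replicate 3. The remaining lists had other orders. *tfap2b* had another order, with deviations of -0.72, -0.66 and -0.40, and so did *tfap2c*, with 0.38, 0.35 and 0.19. With 3 libraries these orders are a description, and the part of pigment cell number in the level of *tfap2e* was not tested.

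**Figure D4:**
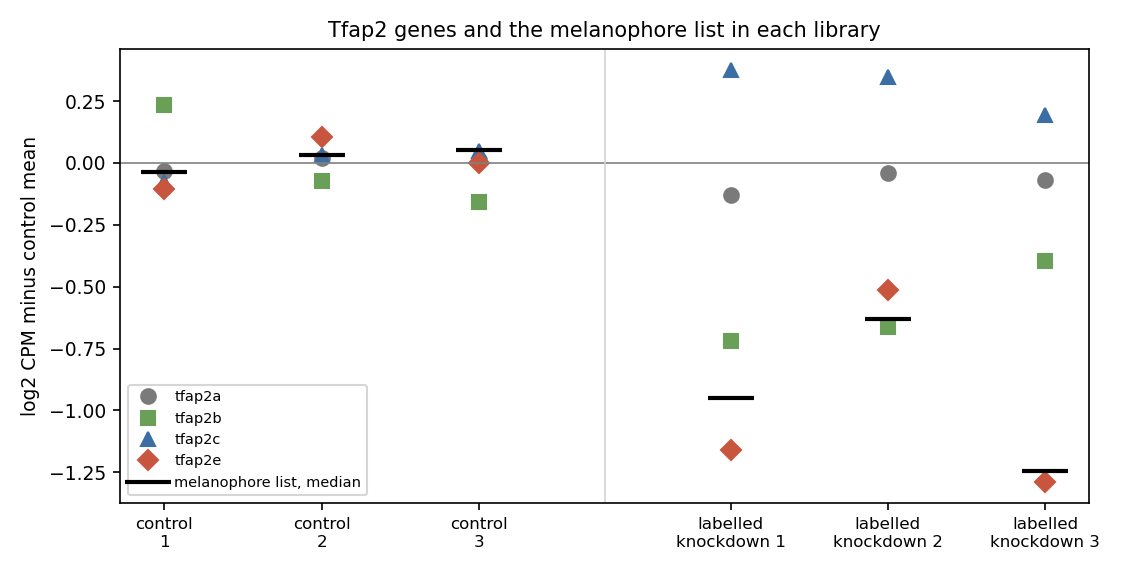
Deviation of log2 CPM from the control mean in each of the 6 libraries for the 4 tested Tfap2 genes (coloured markers) and for the median of the 13 tested melanophore genes (black bars). In the libraries labelled knockdown, *tfap2e* and the melanophore median are both lowest in replicate 3, at -1.29 and -1.25, and highest in replicate 2, at -0.52 and -0.63.

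In the ectoderm, *tfap2a* and *tfap2c* act with *foxi1* and *gata3* in placode formation. None of the 14 genes tested was called by edgeR or DESeq2. By edgeR 3 were at an unadjusted p-value under 0.05, as were 2826 of all 15607 tested genes. The median of the 14 was 0.10. It was 0.06, 0.007 and 0.14 without control replicates 1, 2 and 3, and 0.05 without knockdown replicate 3. *eya1* and *gata3*, both placode regulators, had log2 fold changes of -0.16 and 0.36, and *eya1* was at 0.03 without knockdown replicate 3. In the epidermis list 13 genes were tested, 1 was called higher and 1 lower (15.4%, against 4.29% over all genes). The median of 0.11 was 0.05 and 0.21 without control replicates 1 and 3, and 0.21 without knockdown replicate 1. Without knockdown replicate 1 or 2, 2 were called higher. Over all genes those fits called 320 and 405 higher, against 314 with all libraries. Both genes called with all libraries were keratins, *krt17* at 1.37 and *krtt1c19e*, a gene of basal epidermal cells, at -1.67. Both were called in all 17 alternatives. Keratin genes are similar in sequence, so their counts are uncertain.

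Of 12 tested pharyngeal arch genes, 2 were called lower and none higher (16.7%, against 4.29% over all genes), with a median of -0.30. These were the homeobox genes *dlx1a* and *dlx2a*, at -1.01 and -0.67, called in 11 and 10 of the 17 alternatives. DESeq2 called neither. Fits without 1 library called 0 (without control replicate 1 or 2 or knockdown replicate 3) or 1 of the list. Over all genes, the fits that called 0 of the list called 247, 219 and 366, against 669 with all libraries. In the noradrenergic list 6 genes were tested and 2 were called lower, 33.3% against 4.29% over all genes. They were the proneural gene *ascl1a* at -0.93 and the autonomic neuron regulator *phox2bb* at -0.87. DESeq2 called *phox2bb* but not *ascl1a*. Of the 6 genes, 4 had an estimate below 0 and 2 above 0. The median of the 6 was -0.48. In fits without 1 library it ran from -0.63 without knockdown replicate 1 to -0.26 without knockdown replicate 3. None was called without control replicate 2, 2 without knockdown replicate 2 and 1 without any other library. Over all genes, the fits without control replicate 2 and without knockdown replicate 2 called 219 and 914. *dbh* and *th*, the enzyme genes that define noradrenergic cells, did not pass the count filter, and both have a copy row.

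Among amacrine and GABAergic neuron genes, where *tfap2a* and *tfap2b* are known from the retina, 10 were tested and 1 was called lower. It was *foxn4*, a regulator of amacrine precursors, with a log2 fold change of -0.83, called in 11 of the 17 alternatives but not by DESeq2. Among the fits with 1 library left out, the one without knockdown replicate 2 alone called a gene of this list. That fit also called the most over all genes, 914. The median of the list was -0.49, and its called share was 10%, against 4.29% over all genes. *pax6a* and *pax6b*, retinal and neural regulators, were at -0.41 and 0.006, and neither was called. None of the 8 tested midbrain and hindbrain genes was called by edgeR or DESeq2, with 3 at an unadjusted p-value under 0.05 by edgeR. Their median of -0.27 was -0.10 and -0.04 without control replicates 2 and 1, and -0.05 and -0.15 without knockdown replicates 2 and 3. Each of these fits tested 9 genes of the list. Where 8 were tested, the median was -0.378 without control replicate 3 and -0.383 without knockdown replicate 1. *otx2* and *otx1a*, regulators of the anterior brain, were at -0.41 and 0.13, and *otx1a* was at -0.008 without knockdown replicate 1. None of the 9 tested distal nephron genes was called by either tool, with 4 at an unadjusted p-value under 0.05 by edgeR. For both lists, the count to set beside these is 2826 of all 15607 tested genes. *mecom*, a distal nephron regulator, was at -0.52 with an adjusted edgeR p-value of 0.0566, and it was called in 4 of the 17 alternatives. *gata3*, which is also in this list, was at 0.36 with an adjusted edgeR p-value of 0.185. Estimates were above 0 for 4 of the 9 nephron genes and below 0 for 5. The nephron list's median, -0.01, ran from -0.13 without knockdown replicate 3 to 0.07 without control replicate 2.

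The p53 pathway responds to cellular stress. Of the 10 genes of its list that were tested, 6 were called higher and none lower, 60% against 4.29% over all genes. The median of the 10 was 1.12. Among fits that left out 1 library, the fewest of the 10 were called, 2, when control replicate 2 was dropped. The most, 7, were called when knockdown replicate 1 was dropped. Over all genes these fits called 219 and 637, against 669 with all libraries. The 4 that were not called with all libraries included *gadd45aa*, at 1.18, and *sesn1*, at 0.16, which were picked out after their values were seen. The 5 called genes with the largest change were *mdm2* and *zgc:136826*, the table's name for *rps27l*, at 1.35 and 1.33, *phlda3* at 1.33, *bbc3* at 1.15 and *cdkn1a* at 1.09. *mdm2* has a copy row, which leaves its level uncertain. Summed over the list, controls had 179 to 200 CPM and knockdown replicates 1, 2 and 3 had 281, 401 and 342 CPM. In the same 3 libraries *tfap2e* had 6.2, 10.1 and 5.6 CPM, and these values are set side by side as a description. Among the tissue markers, *tyrp1b*, the muscle actin gene *actc1b* and the embryonic globin gene *hbbe3* were called lower and none higher. The groups of *actc1b* overlapped, and *hbbe3* has a copy row, which leaves its level uncertain. The called share was 25% of 12 tested genes, against 4.29% over all genes, and their median was -0.39. Only 1 marker was called without control replicate 1 or 2 or knockdown replicate 3. Over all genes those fits called 247, 219 and 366, against 669 with all libraries. The part of these changes in the levels of the Tfap2 genes was not tested.

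The genes whose pattern over the 6 libraries was most like that of each member were found by the root mean square difference of log2 CPM, centred on each gene's own mean, among 11353 named genes with a mean of at least 5 CPM. For *tfap2e* they were *slc4a1a*, an anion exchanger gene of red blood cells, *slc7a11*, a cystine transporter gene, and *aqp3a*, an aquaporin gene, at 0.076, 0.082 and 0.089 on the log2 scale. *slc4a1a* and *aqp3a* were themselves called lower, at -0.87 and -0.91 on the log2 scale, where edgeR's adjusted p-values were 0.0101 and 0.0225. *slc7a11* was not called, at -0.998 and an adjusted edgeR p-value of 0.139. The nearest family member to *tfap2e* by this measure was *tfap2b*, at 0.398. No gene of the melanophore list was among the 3 nearest, but this measure depends on the size of a change as well as its order over libraries.

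For *tfap2b* the nearest genes were *eny2*, *prdm12b* and *nploc4*, at 0.069, 0.079 and 0.085. *tfap2c* had *hsf1*, *guk1a* and *daglb* nearest, at 0.032, 0.049 and 0.051, and *tfap2a* had *tmeff1b*, *actr2a* and *slc4a7*, at 0.024, 0.024 and 0.025. The 3 nearest to *tfap2a* had log2 fold changes of -0.09, -0.08 and -0.08, so they were as close to 0 as *tfap2a* itself. Only 6 libraries in 2 groups enter this measure, and it ranks genes without a test.

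In RefSeq's GRCz12tu gene order, *tfap2b* and *tfap2d* are neighbours with no protein-coding gene between them, and a long non-coding RNA gene spans part of both. Their neighbours on the outer sides, *lin28b* and *hadhb*, had log2 fold changes of 0.10 and -0.51 and were not called, at adjusted edgeR p-values of 0.769 and 0.0989. *tfap2e* lies between *ncdn* and *psmb2*, at 0.27 and -0.37 and not called, and 1 long non-coding RNA gene overlaps it. *tfap2a* overlaps the protein-coding gene *tmem14ca*, which had a log2 fold change of -0.02. The sources used here do not say whether counting used the strand, so reads of overlapping genes may be shared, and the counting annotation may differ from this one.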

How the data were processed

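The values are raw read counts per gene name in a single table that the authors deposited, whose columns carry the library names that the labels give. The submitters' processing notes name FastQC, cutadapt, STAR, DESeq2 and the build GRCz11, with no versions. The counter, annotation and strand setting are not given in the sources used here, and no coordinates or sequences are printed. The third control's description repeats number 2, so replicate numbers come from the titles.

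Counts were filtered with edgeR's filterByExpr (minimum count 10, minimum total 15), scaled with TMM factors and put through the quasi-likelihood test of edgeR 4.0.16 under R 4.3.3 (robust=TRUE, group as the only term, all 6 libraries), and p-values were Benjamini-Hochberg adjusted over 15607 genes. A standard error is the log2 fold change divided by the square root of F. Log2 CPM uses a prior count of 2. Alternatives included DESeq2 1.42.0, limma-voom (limma 3.58.1), other scaling and filters, summed copy rows, a replicate block and each library left out in turn. Thinning every library to the smallest total was added after the data were seen. Chi-square tests of counts between replicates gave 2.82 to 6.41 per degree of freedom, so no library was a repeat of another within sampling noise.

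The members and the 12 other gene lists were chosen with earlier results of these data known. Of the listed names, 10 had no row, and 7 of those were found under an older name or synonym, in part a row already listed. Named genes were the members, all genes of the co-activator list, up to 5 called genes per list with the largest change (the 2 with the highest CPM where fewer than 2 were called) and the 3 genes most like each member, leaving out clone names and copy rows. Figures were drawn with matplotlib 3.10.9.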

Additional observations from a re-analysis of the deposited data

How the results depend on the processing

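Each tested member kept its direction under all 17 alternatives, and *tfap2a*, *tfap2b* and *tfap2c* were not called under any of them. The call of *tfap2e* was lost with library size alone (-0.96), DESeq2 (-1.02), limma-voom (-1.04) and thinning (-0.93), all on the log2 scale, so that 0 members were called there by those tools, with 3, 3, 3 and 2 members at an unadjusted p-value under 0.05. In the main fit 3 members were under that value, as were 2826 of all 15607 tested genes. Leaving out 1 library gave -1.33 to -0.87 for *tfap2e* and 0 to 1 called members. Over all genes, 669 were called, 1010 without a filter. Leaving out control replicate 2 gave the lowest count, 219, and leaving out knockdown replicate 2 the highest, 914. With library size alone 413 of the calls were higher and 284 lower, against 314 and 355 with TMM factors.

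Same-numbered libraries did not deviate together (r = -0.01, 0.07 and 0.07 across genes), and not every library correlated best with its own number, so the numbers were not taken as pairs. With the replicate block 773 genes were called and *tfap2e* was at -1.02. *tfap2d* did not pass the filter, so it has a value only without the filter. Counts of 12 to 51 per library limit the precision for *tfap2e*.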
